A study of Rattus norvegicus with 20 samples.

Results

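The genes examined encode the proteasome, the complex that degrades ubiquitin-tagged proteins. They were taken as every gene whose symbol begins with Psm, a letter from a to g and a digit, which gave 46 of the 14217 genes measured. Of these, 44 are subunits, assembly chaperones or regulators of the proteasome. The other 2 only share the start of the symbol: Psmc3ip encodes a meiotic recombination factor and Psme3ip1 a protein that binds the activator Psme3. The gene Psmb6 and the gene Psme3 were measured here only by probe sets that list several genes and are not described, and Psma8 and Psmb11 were not analysed.

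The study compared a normal with a failed heart of Dahl rats, whose blood pressure depends on the line and on the salt in its food, and took the left ventricle of each. The failed heart came from a rat with congestive heart failure, and a high-sodium diet is named for its mRNA sample only. The labels state an age of 19 weeks, apart from that of the normal H4ac sample, which states none. No transgene or further treatment is named for either heart. For each heart there were 10 Affymetrix Rat Genome 230 2.0 arrays, 1 per assay: mRNA, genomic DNA before immunoprecipitation (pre-IP), and 8 kinds of chromatin immunoprecipitate (ChIP). Acetylation was probed on H3 (H3ac) and on H4 (H4ac). Dimethyl lysine was probed at K4, K9 and K27 and trimethyl lysine at K4, K9 and K20 (K4me2 to K20me3 below), and the labels of these name no histone. The label of the normal H4ac sample gives its source as pre-IP DNA, whereas title, description and protocol name acetylated H4, and it was used as H4ac. A single ventricle specimen served each experiment, so there were no replicates, and no difference below has an error, a p-value or a replicate check. The mRNA labels speak of ventricular myocytes, and 12 cardiomyocyte marker genes had a summed mRNA intensity of 136551 in the normal heart and 199324 in the failed one. In such bulk samples, fewer cells of a type and less RNA per cell cannot be told apart.

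All intensities are given after each array was scaled to a median of 100, with values under 10 set to 10. A difference is failed minus normal on the log2 scale, so that 1 is 2-fold. The level filter for mRNA kept genes whose mean log2 level over both arrays reached the median of all probe sets, an intensity of 96.2. All but 1 of the 46 genes passed it, the exception being Psmg3.

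The proteasome is built from a barrel-shaped 20S core and a 19S cap. In the core, outer alpha rings gate the entry and inner beta rings carry the proteolytic sites. The cap holds a ring of ATPases that unfold the substrate, and non-ATPase subunits that bind and cut off ubiquitin. Interferon-inducible beta subunits can replace the constitutive catalytic ones, which gives the immunoproteasome, best known from antigen presentation. In muscle, the complex removes sarcomere proteins and damaged proteins.

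At the catalytic positions a constitutive subunit can be exchanged for an inducible one, and the mRNA values of these pairs are compared further on. The sequences upstream of their genes are therefore shown first. The bases come from RefSeq, build GRCr8, and run 5′ to 3′ on the strand of the gene up to its start. For Psmb8, bases inside its gene model are not printed, which leaves 232 of 250. Psmb5 carries the chymotrypsin-like site of the constitutive core (chr15:32047380-32047629, minus strand), and Psmb8 is its inducible counterpart (chr20:4657050-4657281, minus strand). Psmb7 carries the trypsin-like site (chr3:42827471-42827720, minus strand), and Psmb10 is the inducible counterpart (chr19:50743293-50743542, minus strand). Capitals mark matches to the 7 motifs searched, on either strand.
Psmb5: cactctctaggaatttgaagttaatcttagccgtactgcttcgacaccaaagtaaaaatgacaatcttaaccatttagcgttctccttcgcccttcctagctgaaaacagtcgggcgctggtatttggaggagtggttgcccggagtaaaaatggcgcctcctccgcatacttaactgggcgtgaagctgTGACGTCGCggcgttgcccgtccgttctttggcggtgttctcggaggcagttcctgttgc
Psmb8: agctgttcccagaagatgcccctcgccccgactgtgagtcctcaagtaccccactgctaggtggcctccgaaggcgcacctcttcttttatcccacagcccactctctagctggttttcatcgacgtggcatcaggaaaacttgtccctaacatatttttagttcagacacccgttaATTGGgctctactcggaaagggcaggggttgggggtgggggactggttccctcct
Psmb7: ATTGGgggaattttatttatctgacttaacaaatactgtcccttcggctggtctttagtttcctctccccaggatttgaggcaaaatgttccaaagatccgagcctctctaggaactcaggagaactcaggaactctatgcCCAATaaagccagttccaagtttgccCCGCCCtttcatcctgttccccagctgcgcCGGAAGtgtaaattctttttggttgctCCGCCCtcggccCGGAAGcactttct
Psmb10: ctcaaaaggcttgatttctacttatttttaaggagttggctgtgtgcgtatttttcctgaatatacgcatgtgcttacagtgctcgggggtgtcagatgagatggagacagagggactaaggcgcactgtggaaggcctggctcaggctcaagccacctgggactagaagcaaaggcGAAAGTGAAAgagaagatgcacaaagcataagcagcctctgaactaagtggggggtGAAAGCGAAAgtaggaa
The capitals in Psmb5 are the core of the antioxidant response element (TGACNNNGC), which factors of the Nfe2l family bind. In Psmb8 they are a reversed CCAAT box. In Psmb7 they are CCAAT boxes, GC boxes (GGGCGG) and ETS cores (CGGAAG), the GC boxes on the reverse strand. In Psmb10 they are the pair of cores of the interferon-stimulated response element (GAAA, any 2 bases, GAAA).

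The same 7 motifs were searched in the 250 bases upstream of 42 of the 46 genes. The other 4 genes, Psmd6, Psma7, Psmd14 and Psmd12, had no entry in the table used. The antioxidant response element core stood in 6 of the 42 (14.3%; Psma3, Psmb2, Psmb5, Psmd1, Psmd9 and Psme4), against 10.1% of all 33469 windows in the table. The interferon-stimulated core stood in 5 (11.9%; Psma4, Psmb3, Psmb10, Psmd7 and Psme2), against 3.41% of all windows. The CCAAT box stood in 21 (50%, against 34%), the GC box in 29 (69%, against 30.5%) and the ETS core in 19 (45.2%, against 13.9%). Among the 13192 windows of genes on the array, the antioxidant core stood in 12.1%, the interferon-stimulated core in 2.68% and the CCAAT box in 34.6%. The GC box stood there in 52.4% and the ETS core in 22.4%. The AP-1 site (TGACTCA) was found in Psmc6 alone and the cyclic AMP response element (TGACGTCA) in Psmb2 alone, 2.38% each. These stood in 4.05% and 1.59% of all windows, and in 3.61% and 2.5% of those of genes on the array. In Psmb2 the antioxidant response element core overlapped a GC box and a CCAAT box. The windows of these genes had a median GC content of 57.0%, against 51.2% over all windows, and GC-rich motifs are more frequent in GC-rich sequence. A match describes letters in a window and shows no binding. These arrays measured DNA under transcript probes and not these windows.

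mRNA of most proteasome genes was higher in the failed heart. The median difference over the 46 genes was 0.65, a 1.57-fold higher level, against 0.15 over all 14217 genes. It was above 0 in 42 of the 46 genes (91.3%), as it was in 57.4% of all genes. The other 4, Psmb10, Psmd5, Psmb9 and Psmg2, lay between -0.14 and -0.06. At least 2-fold higher in the failed heart were 10 of the 45 genes past the level filter (22.2%), against a background of 11.8% of the 9317 genes past it. This excess did not hold with the values as deposited or with quantile normalization, as given below. At least 2-fold lower were 0 of the 45, against 3.14%. Without Psmc3ip and Psme3ip1 the median was 0.66 and the 2-fold count stayed at 10. At a 1.5-fold threshold, 24 of the 45 were higher (53.3%), against 28.5% of all genes past the filter.

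**Figure D1:**
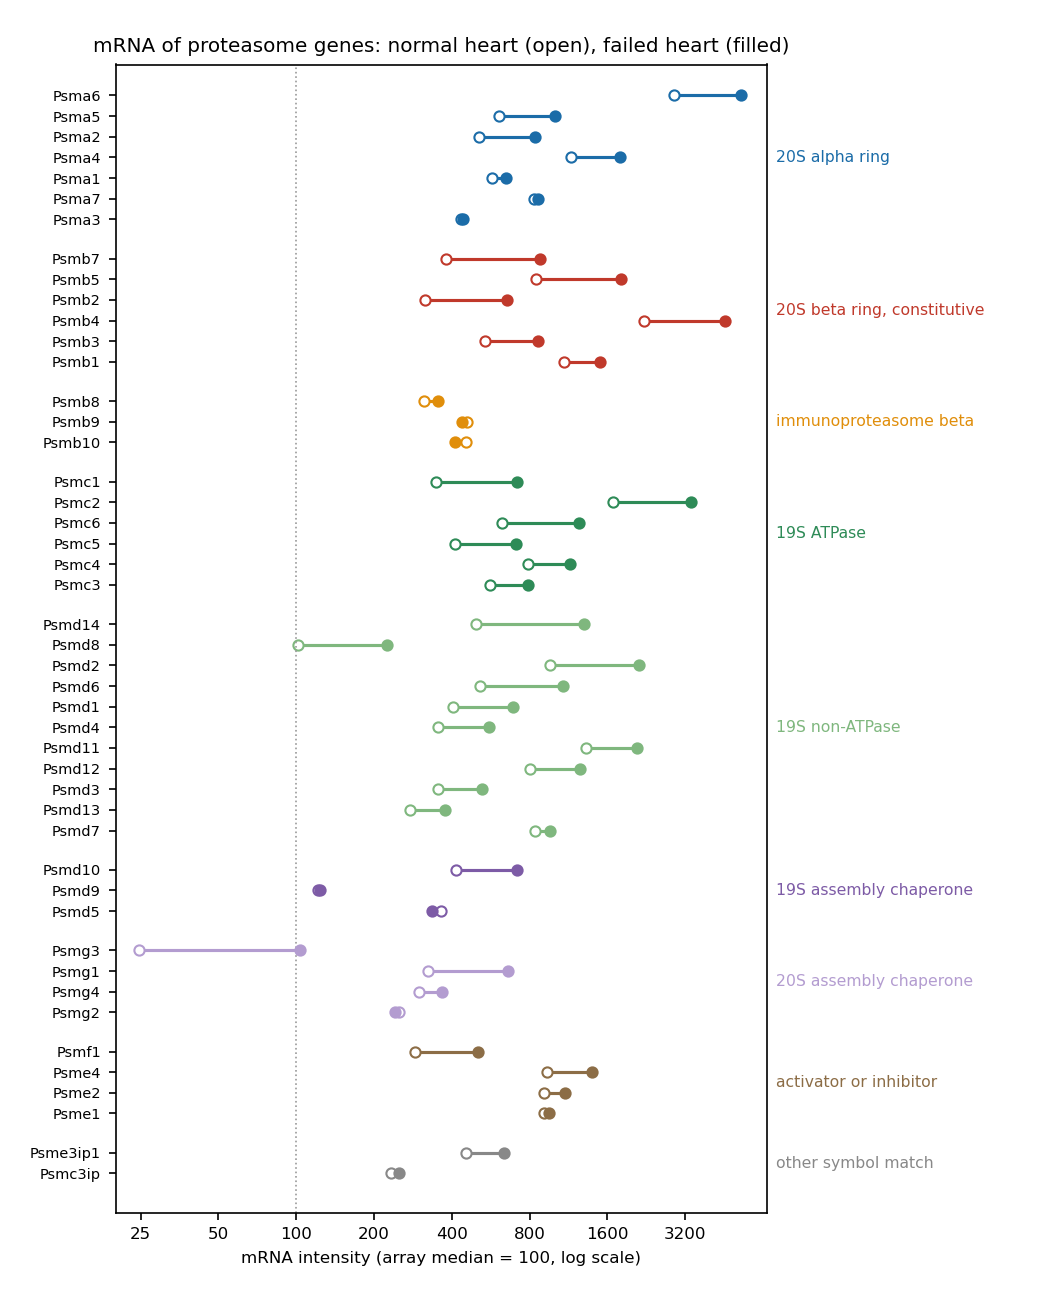
mRNA intensity of the 46 genes on a log axis, by subunit group, with the normal heart as open and the failed heart as filled circles joined by a line; the dotted line is the array median of 100, and there is 1 array per heart. The filled circle lies to the right of the open one in 42 genes, and the 3 immunoproteasome genes show short lines.

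The constitutive beta subunits, which include the proteolytic sites, had the highest median difference of the subunit groups, 1.05 over 6 genes. At least 2-fold higher were 4 of the 6 (66.7%), against 11.8% of all genes past the filter. With values as deposited and with quantile normalization the largest difference of the group was 0.94, so none then reached 2-fold. Psmb7 had an intensity of 378.8 in the normal heart and 876.9 in the failed one, a difference of 1.21. Psmb5 had 848.4 and 1800, a difference of 1.08. Both carry a catalytic site, and in both the failed heart was the higher one. The structural subunits Psmb2 (314.9 and 656.3, 1.06) and Psmb4 (2225 and 4573, 1.04) were higher by about the same factor. Psmb3 (537.7 and 862.2, 0.68) and Psmb1 (1087 and 1496, 0.46) were the members of the ring that did not reach 2-fold.

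The inducible catalytic subunits did not show this difference. Psmb8 had an intensity of 312.1 in the normal heart and 353.9 in the failed one, a difference of 0.18. Psmb9, the inducible form of the caspase-like site, had 457.6 and 436.7, a difference of -0.07. Psmb10 had 453.2 and 411.6, a difference of -0.14. The median of the 3 was -0.07, under the median of all genes, and only Psmb8 lay above the latter. Set against each other at the same catalytic position, the difference of Psmb5 exceeded that of Psmb8 by 0.90, and that of Psmb7 exceeded that of Psmb10 by 1.35. With quantile normalization these gaps were 0.68 and 1.31. The first depends on which probe sets stand for Psmb5: with the mean of its 3 probe sets, of which 2 are dim, Psmb5 differed by -0.052 and the gap was -0.23. Lymphocytes are among the cells that carry the inducible subunits, and their markers were dim on both arrays. Cd3e had an intensity of 10, the floor, in the normal heart and 30.0 in the failed one, Cd3d had 21.0 and 14.7, Cd79b had 19.9 and 10.8, and Cd8a had 45.7 and 68.3. All 4 were below the level filter. Of the 16 leukocyte and macrophage markers listed, 10 passed it, of which 4 were at least 2-fold higher in the failed heart and 0 lower. Among those past it, Lyz2 had 1325 and 7658, Cd74 had 1276 and 1844, and Ptprc had 248.9 and 214.3. The part of such cells in the values of the inducible subunits was not tested.

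The alpha ring, which forms the gate of the core, had a median difference of 0.62 over 7 genes and none past 2-fold. Psma6 was at its upper end, with 2903 in the normal heart and 5272 in the failed one, a difference of 0.86. Psma5 (0.72), Psma2 (0.72) and Psma4 (0.62) followed. Psma1 (0.17), Psma7 (0.05) and Psma3 (0.03) were at the lower end, with Psma3 at 432.6 and 441.9. The alpha ring thus held genes on both sides of the median of all genes, 5 above and 2 below it, whereas all 6 constitutive beta genes lay above it.

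The ATPases of the cap form a single ring of 6 different subunits, and all 6 were measured. Their median difference was 0.89, with a range of 0.49 to 1.04. Psmc1 had an intensity of 346.8 in the normal heart and 714.0 in the failed one, a difference of 1.04, and was the only one past 2-fold. Psmc2 (1688 and 3364) and Psmc6 (623.5 and 1242) each had a difference of 0.99 and so lay just outside that threshold. Psmc5 (0.78), Psmc4 (0.53) and Psmc3 (562.0 and 790.1, 0.49) were lower in the order.

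Of the 11 non-ATPase subunits of the cap, 4 were at least 2-fold higher (36.4%, against 11.8% of all genes past the filter), and the median was 0.66. Psmd14, the deubiquitinase of the cap, had the largest difference of the proteasome genes past the filter, with 494.5 in the normal heart and 1296 in the failed one, a difference of 1.39. Psmd8 had 101.7 and 224.6, a difference of 1.14, close to the level filter in the normal heart. Psmd2, the large scaffold subunit on which ubiquitin shuttles dock, had 958.6 and 2113, also 1.14. Psmd6 had 514.7 and 1074, a difference of 1.06. The other large scaffold subunit, Psmd1, differed by 0.77 and the ubiquitin receptor Psmd4 by 0.66. Psmd11 (0.65), Psmd12 (0.64), Psmd3 (0.57) and Psmd13 (0.45) lay between these and Psmd7, the partner of Psmd14, which had the smallest difference (841.5 and 958.3, 0.19). All 11 exceeded the median of all genes.

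Assembly factors were mixed. Of the chaperones of the cap, Psmd10 (gankyrin) had 414.9 in the normal heart and 716.7 in the failed one, a difference of 0.79. Psmd9 had 121.5 and 123.4 (0.02), and Psmd5 had 364.2 and 334.6 (-0.12). Of the chaperones of the core, Psmg1 had 323.0 and 662.2, a difference of 1.04, while its dimer partner Psmg2 had 250.7 and 240.9, a difference of -0.06. Psmg4 differed by 0.29. Psmg3 had the widest gap of all 46 genes, 24.6 against 103.8 (2.08), but its mean level was below the filter, and with a floor of 50 the gap was 1.05.

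Activators and the inhibitor did not reach 2-fold. Psme1 and Psme2 encode the interferon-inducible activator that pairs with the immunoproteasome. Psme1 had 908.0 in the normal heart and 952.6 in the failed one, a difference of 0.07, and Psme2 had 905.9 and 1093, a difference of 0.27. Psme4, an activator of another type, had 934.9 and 1394 (0.58). Psmf1, an inhibitor of the core, had 287.8 and 504.3 (0.81). The interferon-inducible activator pair thus lay near the median of all genes, as the inducible catalytic subunits did. Of the 2 genes that only share the symbol, Psmc3ip differed by 0.10 and Psme3ip1 by 0.49.

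Part of the shift is shared by genes of like level. Over the 2212 genes in the middle range of the proteasome genes' own level, a mean log2 level of 8.76 to 9.89, the median difference was 0.29 and 11.9% were at least 2-fold higher. The median difference of all genes grew with level, from 0.05 at a log2 level of 6.5 to 7.5 up to 0.57 at 10.5 to 12. Proteasome genes were above the median of their band in the bands that held most of them: 0.70 against 0.25 for 18 genes at 8.5 to 9.5, and 0.62 against 0.37 for 15 genes at 9.5 to 10.5. In the band from 7.5 to 8.5, 6 genes had a median of 0.14 against 0.13.

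**Figure D2:**
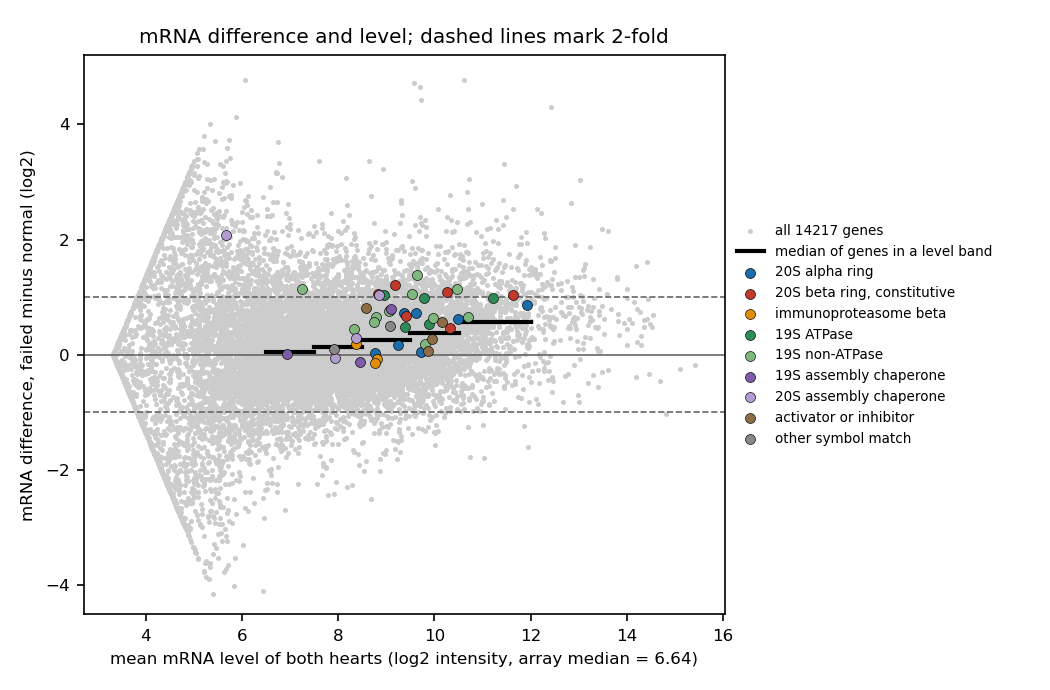
Difference in mRNA (failed minus normal, log2) against the mean log2 level of both hearts, with all 14217 genes in grey, proteasome genes coloured by subunit group, black bars for the median of all genes in a level band, and dashed lines at 2-fold. The bars climb from 0.05 to 0.57 with level, and most coloured points lie above the bar of their band.

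The size of the shift depends on how the arrays are scaled to each other. With the values as deposited, the median of all genes moved by -0.27, that of the proteasome genes was 0.38, and 34 of 46 were above 0. Only Psmd14, 1 of 45 genes past the filter, was then at least 2-fold higher, against 6.1% of all genes past it. With quantile normalization the median was 0.29 and 35 of 46 were above 0. Of the 45 genes past the filter, 2 were at least 2-fold higher, Psmd14 and Psmd8, both by 1.09, against 6.39% of all genes. In both settings the 2-fold share was thus below that of all genes, the reverse of the main scaling. The share of higher among all 2-fold calls was 79% with the main scaling, 47.1% as deposited and 52.6% after quantile normalization. With the main scaling 37 of 46 lay above the median of all genes. As deposited, every difference moves by the same amount, so this count could not change. After quantile normalization it was 35. The median of the proteasome genes exceeded that of all genes by 0.50 with the main scaling and by 0.29 after quantile normalization. As deposited, all 3 inducible catalytic genes were below 0, at -0.41 to -0.09, and the median of the 3 chaperones of the cap was -0.24.

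A second reading was possible for 9 genes that had further probe sets, 14 in all. Past the filter were 8, 6 of them above 0, with a median difference of 0.36. Psmd14 was higher in the failed heart on a further probe set past the filter too, with 90.2 and 165.4 (0.88). The second probe set of Psmd7 gave 271.2 and 523.2 (0.95), against 0.19 on the one used. For Psmc6 the further probe sets gave 0.29 and 0.07, against 0.99 on the one used, so its near 2-fold value did not recur. Psme4 gave 0.54 and -0.39 on its further probe sets, and Psmd9 gave -0.60 on its second. Psmb5 had only dim further probe sets, 58.0 against 12.9 and 10 against 19.1, which point in opposite directions. A dim second probe set of Psme1 gave 14.6 against 73.6.

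**Figure D3:**
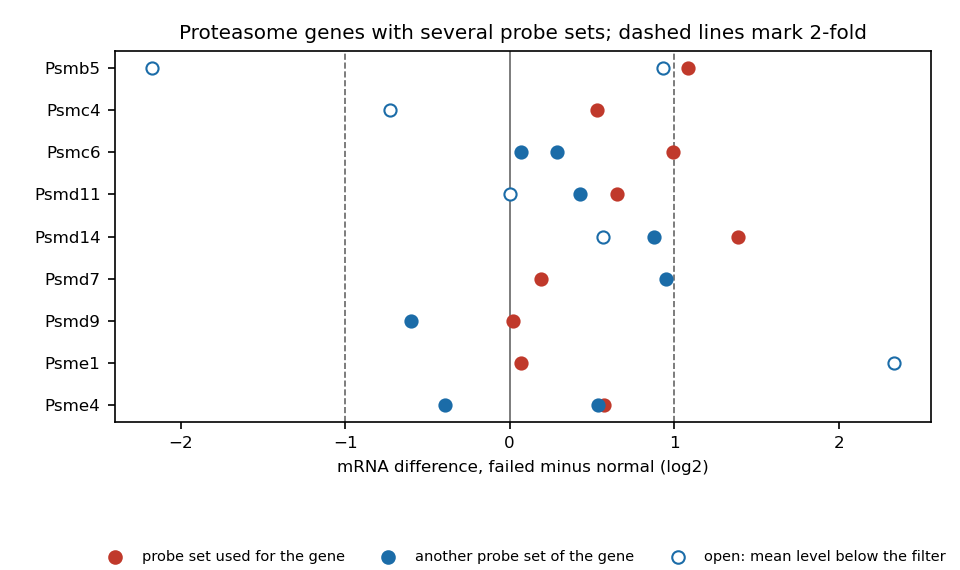
Difference in mRNA (failed minus normal, log2) of every probe set of the 9 genes with more than 1, with the probe set used for the gene in red, the others in blue, and open circles for mean levels below the filter; dashed lines mark 2-fold. Probe sets of Psmd14 all lie to the right of 0, and those of Psmb5, Psme4 and Psmd9 lie on both sides.

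Genes that work with the proteasome were taken from lists of its pathway. Of 8 partner proteins past the level filter, 2 reached 2-fold higher (25%, against 11.8% of all genes past it). Lower by 2-fold were 0, against 3.14%, and the median was 0.61. Ecpas, which tethers the cap to the core, had 791.3 in the normal heart and 2215 in the failed one, a difference of 1.48. Its further probe sets past the filter gave 0.59, 0.37 and -1.11. The cap-bound deubiquitinase Uchl5 had 434.9 and 942.3 (1.12), while Adrm1, the ubiquitin receptor that recruits it, had 206.2 and 181.7 (-0.18).

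Among 16 regulators of proteasome genes past the filter, 2 reached 2-fold higher (12.5%), near the 11.8% of all genes past it. Lower by 2-fold were 0, against 3.14%, and the median was 0.44. Nfe2l1, the factor that raises subunit transcription when the proteasome is impaired, had 310.4 in the normal heart and 996.1 in the failed one, a difference of 1.68, and its further probe sets gave 0.93 and 0.17. Foxo3, which drives ubiquitin ligase genes in wasting muscle, had 719.0 and 1779 (1.31). Mafg, a dimer partner of the Nfe2l factors, had 533.9 and 275.8 (-0.95).

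The steps that attach ubiquitin were represented by E2 enzymes and E3 ligases. Among 25 E2 enzymes past the filter, 4 (16%) reached 2-fold higher and 0 lower (median 0.46), among them Cdc34 at 1.21 and Ube2n at 1.10. Of 14 E3 ligases of heart and muscle, 3 (21.4%) were higher and 1 lower (median 0.47). Fbxl22 (155.4 and 398.3, 1.36), Cul3 (2273 and 5405, 1.25) and Trim54 (3557 and 8197, 1.20) were the higher ones. Trim63, the muscle ligase that marks sarcomere proteins for the proteasome, was the lower one, with 810.7 in the normal heart and 377.1 in the failed one (-1.10). Of the ubiquitin and E1 genes, 2 were measured and neither reached 2-fold (median 0.46).

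Of 14 shuttle and p97 segregase genes, which deliver tagged proteins, 1 (7.14%) was at least 2-fold higher and 0 lower (median 0.49), namely Ubxn1 at 1.02. Of 19 deubiquitinases, 2 (10.5%) were higher and 0 lower (median 0.37), namely Uchl3 (82.5 and 254.3, 1.62) and Usp9x (1.01). The further probe sets of Usp9x past the filter gave 0.89 and 0.22, under 2-fold. Of 10 antigen processing genes, 1 (10%) was higher and 0 lower (median 0.38). The chaperone Canx differed by 1.40, whereas the peptide transporter Tap2, which takes up proteasome products, had 273.2 and 140.0 (-0.96). Of 16 autophagy and lysosome genes, which serve the other main degradation route, 3 (18.8%) were higher and 0 lower (median 0.78). They were Ctsb (1.41), Ctsl (1.11) and Lamp2 (1.03). All these shares of higher genes are to be read beside the 11.8% of all genes past the filter, and the lower ones beside 3.14%. The regulators, deubiquitinases and antigen processing genes stood near the 11.8%.

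Markers of other cells and of RNA quality differed between the same mRNA arrays. For cardiomyocytes, 6 of 12 markers past the filter were 2-fold higher or more and 1, Myh6, was lower (median 1.01). Of 10 leukocyte and macrophage markers past it, 4 were higher and 0 lower, and the summed intensity of the 16 listed was 4156 in the normal heart and 12667 in the failed one, while the pan-leukocyte gene Ptprc had 248.9 and 214.3. Of 9 fibroblast markers 3 were higher. Of 8 endothelial markers 1 was at least 2-fold higher and 0 lower, but 4 were below 0 and the median was -0.20. Of the 7 genes listed for smooth muscle, 5 were lower and 1, Des, was higher (275.9 and 1489, 2.43). The red blood cell markers had a summed intensity of 1229 in the normal heart and 4359 in the failed one, with Hbb at 888.6 and 3880 (2.13). For GAPDH, the ratio of 3 prime to 5 prime control probe sets was 11.3 in the normal heart and 22.6 in the failed one. For beta-actin it was 18.2 and 12.4. The part of cell makeup and of RNA quality in the differences of the proteasome genes was not tested.

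Pre-IP DNA, which carries no mark, gives the background of the ChIP values. Over the 46 genes its median difference was 0.13, against 0.01 over all genes, and 1 of 29 genes past the filter was at least 2-fold higher, against 3.96% of all genes, and 0 lower, against 3.53%. The higher one was Psmc1, with 69.3 in the normal heart and 154.5 in the failed one (1.16). Psmb2, below the filter, had 32.9 and 90.6 (1.46). The lowest were Psmc3 (161.9 and 88.3, -0.88) and Psmb9 (224.2 and 125.4, -0.84). Enrichment of a mark is its log2 ChIP value less the log2 pre-IP value of that heart, so a low or high pre-IP value moves all 8 marks of that gene together.

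At the proteasome genes the median of every mark lay less than 2-fold from pre-IP in both hearts. The medians over the 46 genes in the normal and the failed heart were 0.15 and 0.17 for H3ac, 0.20 and -0.02 for H4ac, -0.16 and -0.21 for K4me2, and -0.09 and -0.13 for K4me3. For the other methylations they were -0.49 and -0.21 for K9me2, 0.29 and 0.22 for K9me3, -0.30 and -0.37 for K20me3, and -0.42 and -0.61 for K27me2. Over all genes every median lay between -0.04 and 0.06. The acetylation medians above 0 turned with the scaling: with values as deposited they were -0.20 and -0.22 for H3ac and -0.067 for H4ac in the normal heart, and with quantile normalization -0.051, -0.13 and -0.0068. Acetylation is usually found at active genes and K27 methylation at silent ones, but the arrays read transcribed sequence and not promoters.

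By medians, K27me2 lay farther below the genes of like level than the other marks did; their medians were -0.14 and -0.18. Below 0 in both hearts were 26 of the 46 genes (56.5%), against 32.1% of all genes and 41.2% of the 2212 genes of like mRNA level. Counts by sign, for this and the other marks, took no level filter, so they include dim values. Only 25 of the 46 genes passed the filter for K27me2. Above 0 in both hearts were 3, Psmb5, Psmd8 and Psme1, against 33.2%. By group, 5 of 6 ATPases, 8 of 11 non-ATPase subunits and 4 of 7 alpha subunits were below 0 in both hearts, but 2 of 6 constitutive beta subunits. Psmb10 had a K27me2 intensity of 150.9 in the normal heart and 130.0 in the failed one on a pre-IP of 314.2 and 277.7, an enrichment of -1.06 and -1.10. Psmd8 had 113.3 and 184.9 on a pre-IP of 82.0 and 116.2, an enrichment of 0.47 and 0.67. Both genes thus kept their side of 0 in both hearts, in opposite directions.

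For K20me3, 24 genes were below 0 in both hearts (52.2%), against 30.8% of all genes and 39.3% of those of like level, and 7 above (15.2%), against 29.6% of all genes. For K4me2, 24 were below 0 in both hearts (52.2%), against 31.5% and 35.5%, and 16 above (34.8%), against 36.3%. For K9me2, 22 were below in both (47.8%), against 33.6% and 42.3%, and 12 above (26.1%), against 32.5%. For K4me3, 15 were below in both (32.6%), against 28.9% and 35.2%, and 8 above (17.4%), against 27.7%. By these counts, K20me3 and K4me2 stood farther from the genes of like level than K9me2 and K4me3 did.

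K9me3 went the other way: 22 were above 0 in both hearts (47.8%), against 31.2% of all genes and 36.7% of those of like level, and 8 below (17.4%), against 28.5% of all genes. H3ac was above 0 in both hearts in 18 genes (39.1%), against 36.8% and 42%, and below in 12 (26.1%), against 31.9%. H4ac was above in both in 19 (41.3%), against 37.5% and 45%, and below in 15 (32.6%), against 32.9%. By these counts both acetylations stood near the background. By medians, H4ac was 0.20 in the normal heart, against 0.18 for genes of like level, but -0.02 against 0.18 in the failed one. On histone H3, K9me3 is known as a mark of silent chromatin. The genes at which it was above pre-IP in both hearts include the ATPase gene Psmc2 (0.80 and 0.09) and the alpha subunit gene Psma6 (0.23 and 0.34). All these values were under 2-fold.

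**Figure D4:**
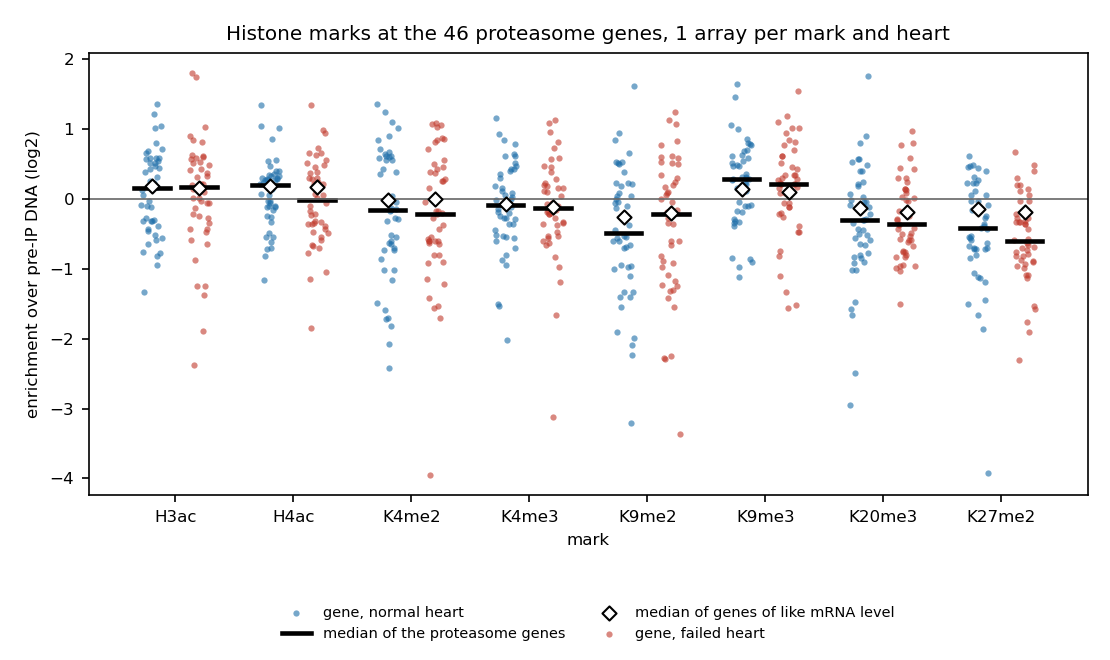
Enrichment over pre-IP DNA (log2) of the 46 genes for each mark, in blue for the normal and in red for the failed heart, with black bars for their median and diamonds for the median of genes of like mRNA level; there is 1 array per mark and heart. The bars lie below the diamonds for K20me3 and K27me2 in both hearts and above them for K9me3.

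Some genes were high or low in most marks at once. Psmc6 and Psmd2 were below 0 in both hearts in all 8 marks and Psma1 in 7. Psmd8 was above 0 in both hearts in 7, and Psme1 in 6. Psmc6 and Psme1 were below the level filter in pre-IP and in all 8 marks. How many of all genes had 1 sign in so many marks was not counted. Psmd2 had a K4me2 intensity of 33.8 in the normal heart and 76.3 in the failed one on a pre-IP of 181.8 and 203.7, an enrichment of -2.43 and -1.42. The 8 marks of a heart share 1 pre-IP array, so low values in all of them are not independent.

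The inducible catalytic genes differed between kinds of marks. Psmb8 had an H4ac intensity of 396.5 in the normal heart and 503.2 in the failed one on a pre-IP of 155.6 and 255.1, an enrichment of 1.35 and 0.98. Its K4me2 values were 399.0 and 528.8, an enrichment of 1.36 and 1.05, the highest mean K4me2 and the highest mean H4ac of the 46 genes. Its K9me2 values were 58.7 and 107.4, an enrichment of -1.41 and -1.25. H3ac, H4ac and K4me2 were thus above and K9me2 and K9me3 below pre-IP in both hearts, while K4me3 was 0.62 and -0.06. Psmb10 had the same signs in these 5 marks: 0.44 and 0.90 for H3ac, 0.54 and 0.37 for H4ac, 0.55 and 0.81 for K4me2, -2.23 and -0.19 for K9me2, and -1.11 and -1.52 for K9me3. Its K4me3 was below 0 in both hearts (-0.12 and -0.27). Psmb9 was below 0 in both hearts in K9me2 (-1.99 and -0.35) but changed sign between the hearts in H3ac, H4ac and K4me2. The constitutive counterpart Psmb5 had -0.04 and 0.39 for K4me2 and -0.01 and 0.82 for K4me3. Psmb7 had 0.06 and 0.14 for H3ac, 0.40 and 0.48 for H4ac, 0.71 and 0.16 for K4me2, and -0.60 and -0.60 for K9me2. In both hearts, Psmb7 and the constitutive Psmb4 were thus also above pre-IP in H3ac, H4ac and K4me2 and below it in K9me2. These signs were not particular to the inducible genes.

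Other genes at the ends of a mark were as follows. H3ac was highest in Psmc3ip (1.36 in the normal heart and 1.75 in the failed one) and Psmc3 (0.58 and 1.80), and lowest in Psmd14 (-1.33 and -2.37). H4ac was lowest in Psmd2 (-0.04 and -1.84) and Psmb1 (-0.82 and -0.33). K4me3 was lowest in Psma1 (-2.02 and -0.84) and highest in Psme1 (1.17 and 0.46). Psmd14, the gene with the largest mRNA difference past the filter, therefore stood at the low end of H3ac in both hearts, on dim values of 34.5 and 21.4.

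K9me3 was highest in Psma4 (1.65 and 1.02) and Psmd6 (1.06 and 0.81), and lowest in Psmb10 and Psmg4 (-0.90 and -1.56). Psma4 also led K9me2 (1.61 and 1.07) and K20me3 (1.77 and 0.25), on pre-IP intensities of only 22.0 and 38.7. K27me2 was lowest in Psmd4, with 11.5 in the normal heart and 71.3 in the failed one (-3.92 and -0.90). Psmd13 was at the floor in K9me2 in the normal heart, so its -3.20 there is an upper bound, and Psmc1 was at the floor in K4me2 in the failed heart.

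Between the hearts, the median difference in enrichment of the 46 genes lay between -0.14 for K9me3 and 0.16 for K9me2. The medians over all genes lay between -0.08 and 0.07. The direction of these small medians is not settled: on the ChIP arrays alone, K9me3 was 0.064 and K20me3 0.074, against -0.14 and -0.13 with pre-IP subtracted. The share of genes past 2-fold in either direction was below the background in every mark, but only slightly so for H4ac and K20me3. The marks of a heart share its pre-IP array, so the same direction in every mark is not independent evidence. The number past 2-fold was small, 2 to 5 genes per mark. It was 4 of 31 genes past the filter for H3ac (12.9%, against 19.3% of all genes) and 3 of 31 for H4ac (9.68%, against 11.4%). For K4me2 and K4me3 it was 4 of 30 each (13.3%, against 18.2% and 18.7%). For K9me2 it was 3 of 28 (10.7%, against 25.3%), for K9me3 5 of 37 (13.5%, against 20.6%), for K20me3 4 of 28 (14.3%, against 17.5%) and for K27me2 2 of 25 (8%, against 13.2%).

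Among genes past the filter, the ATPase gene Psmc3 recurred. Its enrichment was higher in the failed heart by 1.22 in H3ac, 1.11 in H4ac, 1.33 in K4me3 and 1.25 in K9me3. Its pre-IP difference was -0.88, and its ChIP arrays alone differed by 0.35, 0.24, 0.45 and 0.37 in these marks. Psmb9 recurred likewise, with 1.18 in H3ac, 1.56 in K4me2, 1.63 in K9me2 and 1.24 in K9me3, on a pre-IP difference of -0.84. The 2-fold values of both genes were thus shared with a lower pre-IP value in the failed heart.

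In other genes the ChIP arrays themselves differed. Psmb10 had a K9me2 intensity of 67.1 in the normal heart and 242.8 in the failed one, an enrichment difference of 2.03, and 1.86 on the ChIP arrays alone. Psmb3 had a K20me3 intensity of 74.2 and 303.7, a difference of 1.87, and 2.03 on the ChIP arrays alone. Psmd2 had an H4ac intensity of 177.3 and 56.8, a difference of -1.80, and -1.64 on the ChIP arrays alone. These 3 genes differed in mRNA by -0.14, 0.68 and 1.14. Psmc4 had a K9me2 intensity of 356.6 and 773.7, a difference of 1.03, and 1.12 on the ChIP arrays alone. Psme4 had a K4me3 intensity of 96.8 and 190.8, a difference of 1.65, or 0.96 with the mean of its probe sets. It had a pre-IP difference of -0.67 and 0.98 on the ChIP arrays alone, so its 2-fold value was partly shared with a lower pre-IP.

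Psmb5, 2-fold higher in mRNA with the main scaling only, had an H3ac intensity of 102.2 in the normal heart and 184.2 in the failed one. The difference in enrichment was 1.36, which was 0.33 with the mean of its probe sets. Its pre-IP difference was -0.51, and the ChIP arrays alone differed by 0.85, under 2-fold. Its K9me2 intensity was 76.0 in the normal heart and at the floor of 10 in the failed heart, so the difference of -2.42 is an upper bound, on a dim value. Its H4ac enrichment differed in the opposite direction, 0.30 in the normal heart and -0.23 in the failed one. Psmb7, 2-fold higher in mRNA with the same scaling, had H3ac enrichments of 0.06 and 0.14 and K9me2 enrichments of -0.60 and -0.60. The 2 constitutive catalytic genes thus had unlike marks beside like mRNA differences.

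**Figure D5:**
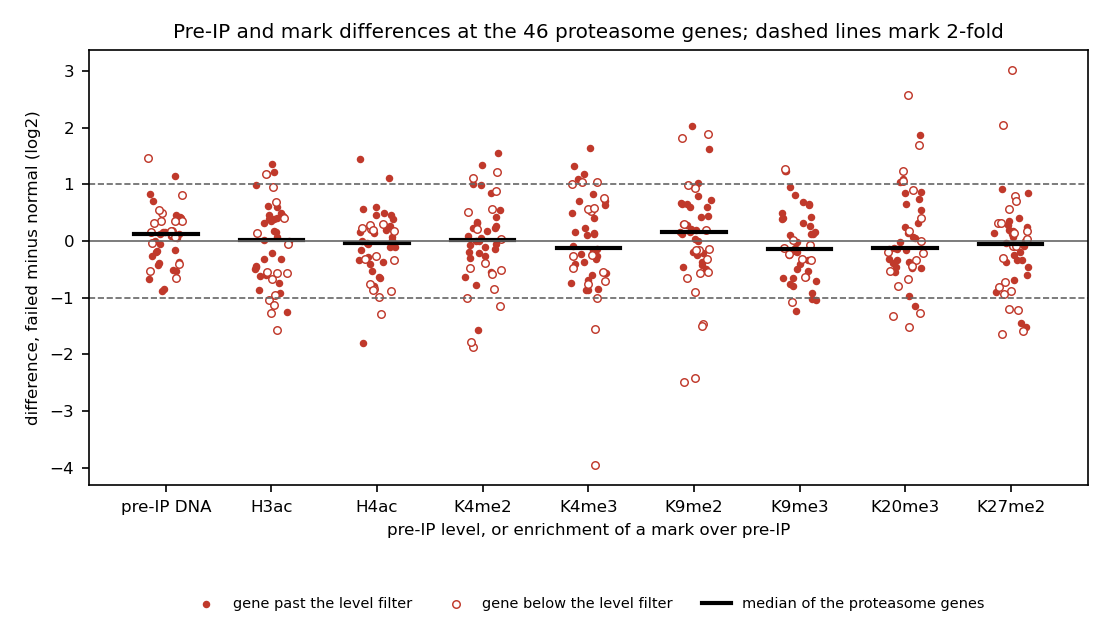
Difference between the hearts (failed minus normal, log2) in pre-IP DNA and in the enrichment of each mark for the 46 genes, with filled circles for genes past the level filter of that comparison, open circles for those below it, black bars for the median and dashed lines at 2-fold. All medians lie between -0.14 and 0.16, and the values beyond 2 in size are mostly open circles.

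Across the 46 genes, the order of enrichments in the normal and the failed heart had a Spearman's rho between 0.18 for K4me3 and 0.68 for K4me2, against 0.20 and 0.51 for these marks over all genes. Both hearts share the probes, and the marks of a heart share its pre-IP array. The mark differences and the mRNA differences of the 46 genes had a rho between -0.25 for H4ac and 0.27 for K4me2. Enrichment and mRNA level within a heart had a rho between -0.31 and 0.11. Genes are not independent replicates, and these values are descriptions of 1 pair of hearts.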

How the data were processed

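The data were 20 Affymetrix Rat Genome 230 2.0 arrays, 10 from a normal and 10 from a failed heart. The authors deposited linear intensity values, 1 for each of 31099 probe sets on every array. In the file, the mean after removal of 2% of values at each end was between 500.03 and 500.17 on every array, which is what global scaling gives. Per the labels' protocols, RNA became biotin-labelled cDNA, and fragmented DNA was amplified by T7 transcription. No source used here names the tool that summarised them. Depth has no meaning for arrays: the number of arrays, 1 per assay and heart, limits the precision, and no test was run.

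Each array was scaled to a median of 100, floored at 10 and put on the log2 scale. Of the 20826 probe sets with exactly 1 gene, controls left out, the one with the highest mean log2 mRNA stood for its gene. Enrichment was the log2 ChIP value less the log2 pre-IP value of that heart. Counts at the 2-fold threshold were taken among genes with a mean level, over the arrays compared, that reached the median of all probe sets. Counts of genes above or below 0 took no level filter. Alternatives were values as deposited (with the floor at the same place relative to each array), quantile normalization, a floor of 50, the mean of all probe sets of a gene, no level filter and a 1.5-fold threshold. The lists without Psmc3ip and Psme3ip1, and the ChIP arrays alone, were added after seeing the data. Members and lists were chosen with earlier results of these data known.

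Genes named by rule were the catalytic pairs, the activators and the inhibitor. The rule also took the 6 highest and 6 lowest mRNA differences, both ends of each subunit group, the 2 at each end of each mark and of pre-IP, and up to 4 genes of a pathway list. Other genes were named after their values were seen, among them those below 2-fold in a subunit group and the genes with 1 sign over most marks. Upstream windows came from RefSeq, build GRCr8, searched over 250 bases and printed without bases inside the gene model. The counting was tested on simulated data. Python 3.11.15, numpy 2.4.6, pandas 2.3.3, scipy 1.17.1 and matplotlib 3.10.9 were used.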

Additional observations from a re-analysis of the deposited data

How the results depend on the processing

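With 1 array per assay and heart there is no spread to judge the values by, and signal over background limits the ChIP values: several lie near the floor. No paired analysis was possible because each group holds 1 array. The values below moved. As deposited, every mRNA difference moved by the same -0.27, and the mean for Psmb5 took in 2 dim probe sets. For the other values the cause was not tested. With values as deposited, the median mRNA difference of the proteasome genes was 0.38, the 2-fold higher count 1, and the failed-heart medians -0.22 for H3ac (reversed), -0.89 for K4me2 and 0.36 for K9me3. In the normal heart the H3ac and H4ac medians turned to -0.20 and -0.067. With quantile normalization these were 0.29 for mRNA, 2 for the count, -0.13 for H3ac (reversed) and 0.34 for K9me3, with normal-heart medians of -0.051 for H3ac and -0.0068 for H4ac. The 2-fold counts of 1 and 2 were smaller shares than the 6.1% and 6.39% of all genes past the filter. With a 1.5-fold threshold the count was 24 (53.3%, against 28.5% of all genes past the filter). The median of the 3 cap chaperones reversed to -0.24 as deposited, and Psmb5 mRNA to -0.052 with the mean of its probe sets. The median mRNA difference and the 2-fold counts over the proteasome genes kept their direction with a floor of 50, with the mean of probe sets, without the level filter and without Psmc3ip and Psme3ip1. Medians of mark differences near 0 changed sign in several settings, among them these: on ChIP arrays alone K9me3 was 0.064 and K20me3 0.074, and with the mean of probe sets K4me3 was 0.0091.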
